A study of Monodelphis domestica with 18 samples.

Results

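BLK, DHRS9, C8ORF48, FAM196B, TMEM130, SUSD4, GPR37, CALML3, SCARA3 and KCNAB2 are 10 genes whose RNA was much lower in opossum kidney (OK) cells under orbital shear stress (OSS) than in Static cells. The loss was not near complete for all of them, since KCNAB2 kept 13.0 to 14.9% and SCARA3 12.7 to 29.0% of the Static level and TMEM130 kept 27.1% at the first time. They were picked from the table of read counts, by gene name, for deep falls in OSS cells relative to Static cells, with the classic hypoxia genes left aside. Hence the differences between OSS and Static were what chose them, and those differences are given as a description with no test. The 10 names stand on 11 of the 23899 genes of the table. The additional entry, a copy of C8ORF48 (ENSMODG00000001512), had 0 counts in all 18 libraries and is not described further. All 10 genes were among the 12840 that passed the filter on low values (above 1 CPM, the read count scaled to library size, in at least 6 of 18 libraries), but FAM196B passed only through the 6 Static libraries of 48 and 96 h. BLK, DHRS9 and C8ORF48 likewise passed only through the 9 Static libraries, where they were high. No numeric cutoff was attached to the choice, so there is no boundary to show; the shallowest difference at 96 h was that of SCARA3.

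OK cells are an epithelial line with features of the kidney proximal tubule, and here they were wild type and grown on permeable supports. OSS cells were shaken on an orbital platform at 146 rpm for 12, 48 or 96 h. The control filters were kept under static conditions and were harvested at 0, 48 or 96 h, where 0 h is the time at which the other filters were moved to the shaker. Each of these 6 groups had 3 replicates, and each replicate was RNA pooled from 3 experiments. Because no Static sample of 12 h is analysed here, the comparison of OSS 12 h with Static 0 h joins the effect of shear with that of 12 h in culture, and these cannot be told apart.

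The proximal tubule reabsorbs most of what the glomerulus filters, and its cells are exposed to flowing fluid in life. Shaking moves the medium over the apical surface and also mixes it. The 10 genes do not form a known pathway. BLK is a tyrosine kinase of the Src family, best known from B lymphocytes of humans and mice. DHRS9 is a short-chain dehydrogenase that oxidizes retinol and 3α-hydroxysteroids, KCNAB2 is a cytosolic β subunit of Kv potassium channels, and CALML3 is a calmodulin-like protein of human epithelia that binds myosin X (MYO10). SUSD4 is a membrane protein with sushi domains that restrains complement in human cells, GPR37 is a G protein-coupled receptor best known from the brain of humans and mice, and SCARA3 is a class A scavenger receptor-like protein linked to oxidative stress. TMEM130 is a transmembrane protein, FAM196B is also called INSYN2B, and C8ORF48 is named from a human open reading frame. The names TMEM130 and C8ORF48 were taken by the deposited table from the human column, and the other 8 from the opossum column.

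Library totals ran between 40154553 and 79745362 counts. The tubule identity of the cells was checked with 12 marker genes, all of which had an entry. LRP2 (megalin), the endocytic receptor of this segment, averaged 6404 ± 681 CPM in OSS 96 h and 4376 ± 325 CPM in Static 96 h (SD, n = 3 each), whereas the water channel AQP1 was close to 0 with 0.0220 and 0.0865 CPM in the same groups. The summed level of the tubule markers was 9389 to 11603 CPM in OSS 96 h libraries and 6552 to 7178 CPM in Static 96 h libraries. Markers of fibroblasts and endothelium (7 genes) had summed levels between 39.6 and 46.6 CPM in the OSS 96 h libraries and between 82.4 and 89.9 CPM in the Static 96 h libraries. The sums were 39.6 to 48.4 CPM (OSS 48 h) and 88.6 to 117.5 CPM (Static 48 h), and they were 73.9 to 103.4 CPM (OSS 12 h) and 110.3 to 151.8 CPM (Static 0 h). These markers were thus lower in OSS, as the 10 genes were, with PDGFRB giving most of it (16.8 CPM in OSS 96 h and 46.8 CPM in Static 96 h), and their part in the results was not tested. The summed level of the distal nephron markers moved the other way, with 27.5 to 41.6 CPM in OSS 96 h and 4.82 to 7.39 CPM in Static 96 h. Most of this sum was SLC12A1 (32.2 CPM in OSS 96 h and 4.47 CPM in Static 96 h). SCNN1G was not called at 96 h, and the means of UMOD, SLC12A3 and CALB1, all under 0.4 CPM, were lower in OSS 96 h. None of the 5 distal genes with an entry was at 0 throughout. In RNA of whole cultures, fewer cells expressing a gene and less of its RNA per cell cannot be told apart.

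BLK showed the plainest pattern of the 10: a low plateau under OSS and a high plateau in Static culture. It had 0.703, 0.781 and 0.710 CPM in the OSS 12 h libraries, 0.914, 0.529 and 0.525 CPM at OSS 48 h, and 0.900, 0.403 and 0.946 CPM at OSS 96 h. Static libraries had 18.5, 31.5 and 9.73 CPM at 0 h, 20.9, 18.4 and 17.4 CPM at 48 h, and 18.2, 17.2 and 21.8 CPM at 96 h. No OSS library came near a Static one, and the lowest Static value was that of replicate 3 at 0 h. OSS cells kept 3.67% of the Static level at 12 h against 0 h, 3.48% at 48 h and 3.93% at 96 h, which are fitted log2 fold changes of -4.73 ± 0.44, -4.87 ± 0.40 and -4.69 ± 0.29 (± SE). At 12 h the fitted change of BLK was the lowest of all 12840 tested genes. BLK is a B lymphocyte gene elsewhere in the body, so markers of blood cells were read beside it. The B cell genes MS4A1 and CD22 were at 0 in all OSS 96 h and Static 96 h libraries, CD79B averaged 0 CPM in OSS 96 h and 0.00582 CPM in Static 96 h, and the pan-leukocyte gene PTPRC averaged 0.179 and 0.337 CPM. PAX5 averaged 0.107 CPM in OSS 96 h and 0.0190 CPM in Static 96 h. CD3E, 1 of the 2 markers that passed the filter, averaged 1.45 and 0.769 CPM. It was called higher in OSS 96 h (log2 fold change 0.92 ± 0.29, edgeR adjusted p = 0.031), as were 25.5% of all tested genes. The 7 blood cell markers with an entry summed to 6.50 to 10.8 CPM in OSS 96 h and to 6.67 to 7.94 CPM in Static 96 h, and most of this was CD68, with 7.13 CPM in OSS 96 h and 6.23 CPM in Static 96 h.

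DHRS9 reached one of the lowest levels under OSS while its RNA was most abundant late in Static culture. The OSS 12 h libraries had 0.874, 0.597 and 0.696 CPM, those of OSS 48 h had 0.0994, 0.132 and 0.154 CPM, and those of OSS 96 h had 0.150, 0.167 and 0.435 CPM. At 48 h these values rested on 5, 9 and 10 counts. In Static culture DHRS9 had 13.1, 27.2 and 10.0 CPM at 0 h, 14.8, 25.9 and 27.5 CPM at 48 h, and 35.3, 41.7 and 54.5 CPM at 96 h. The share of the Static level that remained was 4.30% at OSS 12 h against Static 0 h, 0.567% at 48 h and 0.571% at 96 h. Fitted log2 fold changes were -4.52 ± 0.41, -7.42 ± 0.51 and -7.34 ± 0.35 (± SE).

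FAM196B was almost absent from OSS cells, scarce in Static cells at 0 h and more abundant in Static cells later. It gave 2, 2 and 3 counts in the OSS 12 h libraries, 0, 0 and 4 counts at OSS 48 h, and 1, 0 and 2 counts at OSS 96 h. Static libraries gave 9, 24 and 3 counts at 0 h, 73, 199 and 154 counts at 48 h, and 129, 332 and 350 counts at 96 h. The 3 counts of OSS 96 h against 811 of Static 96 h are 0.311% after allowance for library size, with an exact 95% interval of 0.0641 to 0.913%, and the 4 counts of OSS 48 h against 426 of Static 48 h are 0.843%, with an interval of 0.229 to 2.17%. These intervals cover counting error only. At the first time the interval was wide, with 7 counts in OSS 12 h against 36 in Static 0 h, or 18.4% (6.90 to 41.9%). The fitted log2 fold change of FAM196B at 96 h, -8.11 ± 0.60, was the lowest of all tested genes, though with so few OSS counts its size depends on the prior count of the fit.

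C8ORF48 and TMEM130 stood further below their Static levels at later times. C8ORF48 ranged from 0.0570 to 0.341 CPM in OSS 12 h, 0.0735 to 0.119 CPM in OSS 48 h and 0.0250 to 0.141 CPM in OSS 96 h, the last on 1, 4 and 11 counts. It ranged from 2.53 to 7.72 CPM in Static 0 h, 5.02 to 9.10 CPM in Static 48 h and 6.62 to 10.1 CPM in Static 96 h. What remained of C8ORF48 was 4.15% at OSS 12 h against Static 0 h, 1.47% at 48 h and 0.846% at 96 h. TMEM130 had 0.494, 0.682 and 0.964 CPM in OSS 12 h, 0.358, 0.50 and 0.663 CPM in OSS 48 h and 0.425, 0.458 and 0.511 CPM in OSS 96 h. Static TMEM130 stood at 2.25, 3.69 and 1.97 CPM at 0 h, 3.96, 8.49 and 9.89 CPM at 48 h, and 14.5, 15.5 and 16.7 CPM at 96 h. Of the 10 genes TMEM130 had the highest remaining share at the first time, 27.1% in OSS 12 h, and it was among the lower ones at 96 h with 2.99%. In OSS its mean moved little (0.713, 0.507 and 0.465 CPM at 12, 48 and 96 h), so the widening gap came with the Static side.

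SUSD4 and GPR37 code for surface proteins and were low in all OSS libraries. SUSD4 had 1.27, 1.29 and 1.45 CPM in OSS 12 h, 0.676, 1.10 and 0.849 CPM in OSS 48 h, and 0.775, 1.35 and 2.03 CPM in OSS 96 h. Static cells had 12.8, 23.8 and 9.66 CPM of SUSD4 at 0 h, 31.4, 36.6 and 34.0 CPM at 48 h, and 44.7, 52.8 and 57.7 CPM at 96 h. The 3 replicates of OSS 96 h spread widely, replicate 3 being highest, but even that value was well under every Static library. SUSD4 retained 8.67% of the Static level at 12 h against 0 h, 2.57% at 48 h and 2.68% at 96 h. GPR37 retained 10.1, 9.19 and 8.95% in the same 3 comparisons, with 0.700 to 1.42 CPM in OSS 96 h and 10.9 to 13.3 CPM in Static 96 h.

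CALML3, SCARA3 and KCNAB2 were the most abundant of the 10 under OSS by CPM. CALML3 had 6.78, 13.9 and 14.0 CPM in OSS 12 h, 3.04, 2.87 and 3.98 CPM in OSS 48 h, and 2.85, 3.43 and 10.6 CPM in OSS 96 h, where replicate 3 stood apart. In Static libraries CALML3 had 70.6, 112.8 and 70.9 CPM at 0 h, 65.1, 80.2 and 85.7 CPM at 48 h, and 54.1, 66.0 and 78.2 CPM at 96 h. The remaining share of CALML3 was 13.6% at OSS 12 h, 4.28% at 48 h and 8.53% at 96 h. SCARA3 had 2.11, 2.56 and 2.95 CPM in OSS 12 h, 0.755, 1.53 and 1.39 CPM in OSS 48 h, and 2.20, 2.65 and 2.99 CPM in OSS 96 h. Its Static values were 9.93, 17.7 and 10.2 CPM at 0 h, 6.40, 12.2 and 10.3 CPM at 48 h, and 8.87, 9.50 and 8.66 CPM at 96 h. With 29.0% left at 96 h and a fitted log2 fold change of -1.78 ± 0.14, SCARA3 ranked only 263rd from the lowest among tested genes at that time. KCNAB2 ranged from 3.44 to 6.36 CPM over the 9 OSS libraries and from 16.7 to 45.2 CPM over the 9 Static libraries, and 13.0 to 14.9% of it remained in the 3 comparisons.

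**Figure D1:**
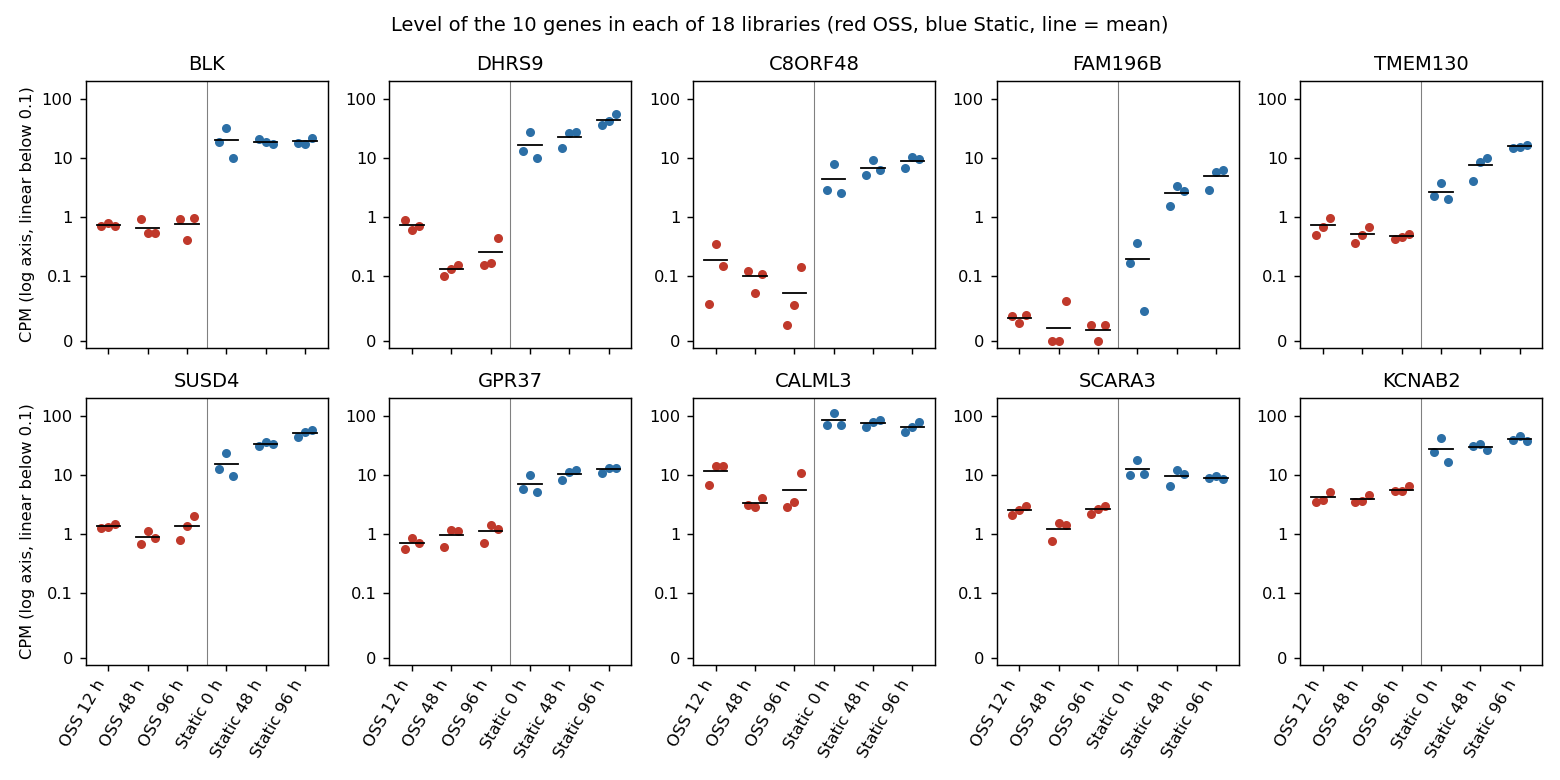
CPM of each of the 10 genes (vertical axis, logarithmic above 0.1 CPM and linear below) in the 3 OSS groups (red, left) and the 3 Static groups (blue, right). Each point is a library and each line a group mean (n = 3). OSS libraries lie below the Static libraries of the matching comparison for every gene, though for FAM196B at the first time only through library scaling. FAM196B at Static 0 h lies far below its later Static levels.

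Over the 10 genes the median share left under OSS was 11.8% at 12 h against Static 0 h (3.67 to 27.1%), 3.88% at 48 h (0.567 to 13.0%) and 3.46% at 96 h (0.343 to 29.0%). The 3 OSS and 3 Static libraries did not overlap for 10 of 10 genes in each comparison. For FAM196B at 12 h against 0 h this rests on library scaling alone, since replicate 3 had 3 counts in both groups (0.0402 CPM in OSS and 0.0458 CPM in Static). Among all tested genes, 19.8% were lower without overlap at 12 h against 0 h, 26.6% at 48 h and 30.5% at 96 h, and because these contrasts chose the 10 genes nothing is read from the difference. The median fitted log2 fold change of the 10 genes was -3.06, -4.70 and -4.87, beside -0.0042, -0.033 and -0.0020 for all tested genes. Genes at least 4-fold lower in OSS numbered 50, 196 and 205 in the whole table at the 3 times, and by that measure SCARA3 at 96 h and TMEM130 at 12 h were outside.

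**Figure D2:**
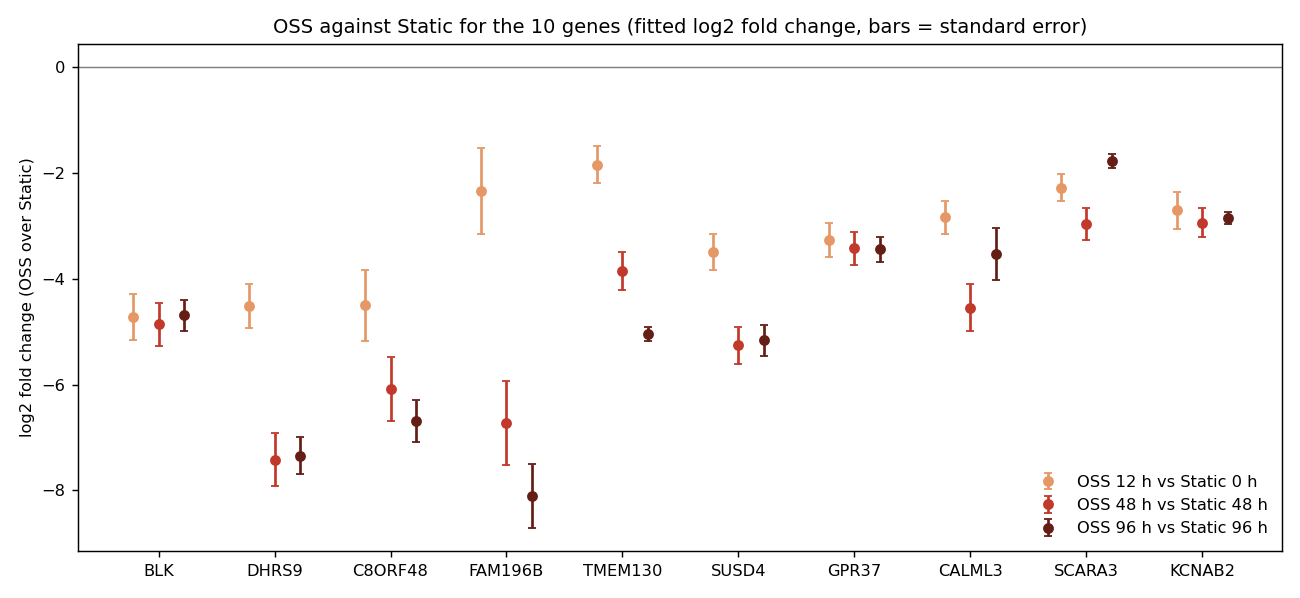
Fitted log2 fold change of each gene, OSS over Static, at OSS 12 h against Static 0 h (light), 48 h (middle) and 96 h (dark); bars are standard errors. BLK, GPR37 and KCNAB2 lie at a similar depth at all 3 times, while DHRS9, C8ORF48, FAM196B, TMEM130 and SUSD4 lie deeper at 96 h than at the first time. CALML3 and SCARA3 lie deepest at 48 h, and CALML3 is also somewhat deeper at 96 h than at the first time, with overlapping bars. These values chose the genes and carry no test.

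Per kilobase of the deposited gene length, CALML3 was the most abundant of the 10 in all 6 groups, with 12.5 CPM per kb in OSS 96 h and 147 CPM per kb in Static 96 h. FAM196B was the least abundant in all 6, with 0.0028 CPM per kb in OSS 96 h and 0.812 CPM per kb in Static 96 h. Between these ends the order of levels in OSS 96 h was KCNAB2, TMEM130, SCARA3, BLK, GPR37, SUSD4, DHRS9 and C8ORF48, and 4 of the 9 neighbouring pairs overlapped in their 3 libraries, namely those from SCARA3 through to DHRS9. In Static 96 h the order was DHRS9, KCNAB2, TMEM130, BLK, SUSD4, C8ORF48, GPR37 and SCARA3, and 3 of 9 neighbouring pairs overlapped: DHRS9 with KCNAB2, BLK with SUSD4, and C8ORF48 with GPR37. DHRS9 thus stood second of 10 in Static 96 h at 40.2 CPM per kb and eighth of 10 in OSS 96 h at 0.230 CPM per kb.

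To follow how the genes moved within each culture, later times were compared with earlier ones. The choice of genes did not use these contrasts, although the same libraries enter the contrasts that it did use, so the steps are not independent of it. Between 12 and 48 h of OSS, DHRS9, CALML3 and SCARA3 fell and none of the 10 rose. DHRS9 fell by 2.45 on the log2 scale (± 0.44 SE, edgeR quasi-likelihood test with Benjamini-Hochberg adjustment over all tested genes, adjusted p = 0.0037), CALML3 by 1.82 (± 0.49, adjusted p = 0.024) and SCARA3 by 1.05 (± 0.27, adjusted p = 0.019). In each of these 3 genes all OSS 48 h libraries were below all OSS 12 h libraries, as was so for 19.4% of all tested genes. Lower calls made up 12.8% of all tested genes in this comparison and higher calls 14.3%, against 3 and 0 of these 10. The call of CALML3 was kept in only 1 of 6 fits that left out a library (adjusted p 0.019 to 0.084), the fit without OSS 12 h replicate 1, and that of SCARA3 was lost without OSS 12 h replicate 3 (adjusted p = 0.068). DHRS9 kept its call in 6 of 6. Its counts per library were 42 to 52 in OSS 12 h and 5 to 10 in OSS 48 h, and it passed the filter only through Static libraries. The other genes that were not called included BLK (-0.17 ± 0.36), KCNAB2 (-0.09 ± 0.18) and GPR37 (0.47 ± 0.35), and for FAM196B, with 0 to 4 counts per library, no fold is given. FAM196B stays in the count of 10 here and in the late steps.

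From 48 to 96 h of OSS none of the 10 genes was called by the same test, beside 1.14% of all tested genes. An unadjusted edgeR p under 0.05 was found for 2 of the 10, beside 2546 of all 12840 tested genes. DESeq2 called 1 of the 10. SCARA3 was the gene nearest to a call, with a log2 change of 1.09 ± 0.27 and an adjusted p of 0.079; all 3 OSS 96 h libraries were above all 3 OSS 48 h libraries, as for 14.1% of tested genes, and its mean of 2.61 CPM at OSS 96 h was close to the 2.54 CPM of OSS 12 h. With the replicate number as a block, SCARA3 (1.10, adjusted p = 0.0040) and KCNAB2 (0.53, adjusted p = 0.012) were called higher at OSS 96 h than at OSS 48 h, and DESeq2 called SCARA3 (adjusted p = 0.0048). Each of these fits also called far more of all tested genes than the main fit did, by the counts given in the last section. The 1.14% is not their share, and nothing is read from how many of the 10 they called. KCNAB2 had 5.30, 5.27 and 6.36 CPM in OSS 96 h, against 3.52, 3.66 and 4.57 CPM in OSS 48 h. DHRS9 (0.99 ± 0.47, adjusted p = 0.28) and CALML3 (0.79 ± 0.49, adjusted p = 0.40) were not called, and in both the OSS 96 h libraries overlapped those of OSS 48 h.

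In Static culture TMEM130 and SUSD4 rose in the early step. TMEM130 was higher at Static 48 h than at Static 0 h by 1.48 ± 0.33 on the log2 scale (edgeR adjusted p = 0.010) and SUSD4 by 1.13 ± 0.28 (adjusted p = 0.015). FAM196B had 73, 199 and 154 counts at Static 48 h, against 9, 24 and 3 counts at Static 0 h, a fitted log2 change of 3.69 ± 0.60. It passed the filter only through the later Static libraries, where it was high, so it is given as a description with no test and is not counted here. None of the 10 fell. Across all tested genes 14.8% were called higher and 15.3% lower in this step. With a replicate block C8ORF48 (0.72, adjusted p = 0.049) and GPR37 (0.61, adjusted p = 0.044) were called higher as well. The shares above are not of that fit, so nothing is read from the number of its calls. Replicate 2 of Static 0 h had the highest level of its group for 10 of 10 genes, by a median of 2.11 times the mean of the other 2 replicates. Without it C8ORF48, GPR37 and DHRS9 were called higher in addition, whereas without Static 0 h replicate 1 SUSD4 lost its call (adjusted p = 0.052). BLK (-0.09 ± 0.33), CALML3 (-0.15 ± 0.20) and SCARA3 (-0.40 ± 0.27) were not called.

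The late Static step, 48 to 96 h, gave no call among the 10 genes and 0.0389% among all tested genes, which is 5 genes. By an unadjusted edgeR p under 0.05 there were 1749 of all 12840 tested genes and 2 of the 10. These 2 were TMEM130 (1.05 ± 0.32, adjusted p = 0.28) and DHRS9 (0.94 ± 0.37, adjusted p = 0.33), and DESeq2 and the blocked edgeR fit each called 0 of the 10. For both genes all Static 96 h libraries were above all Static 48 h libraries, as 11.1% of tested genes were. Over the whole Static course the mean of Static 96 h was 25.8 times that of Static 0 h for FAM196B, 5.89 times for TMEM130, 3.36 times for SUSD4 and 2.61 times for DHRS9, beside 0.957 times for BLK, 0.779 times for CALML3 and 0.715 times for SCARA3.

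**Figure D3:**
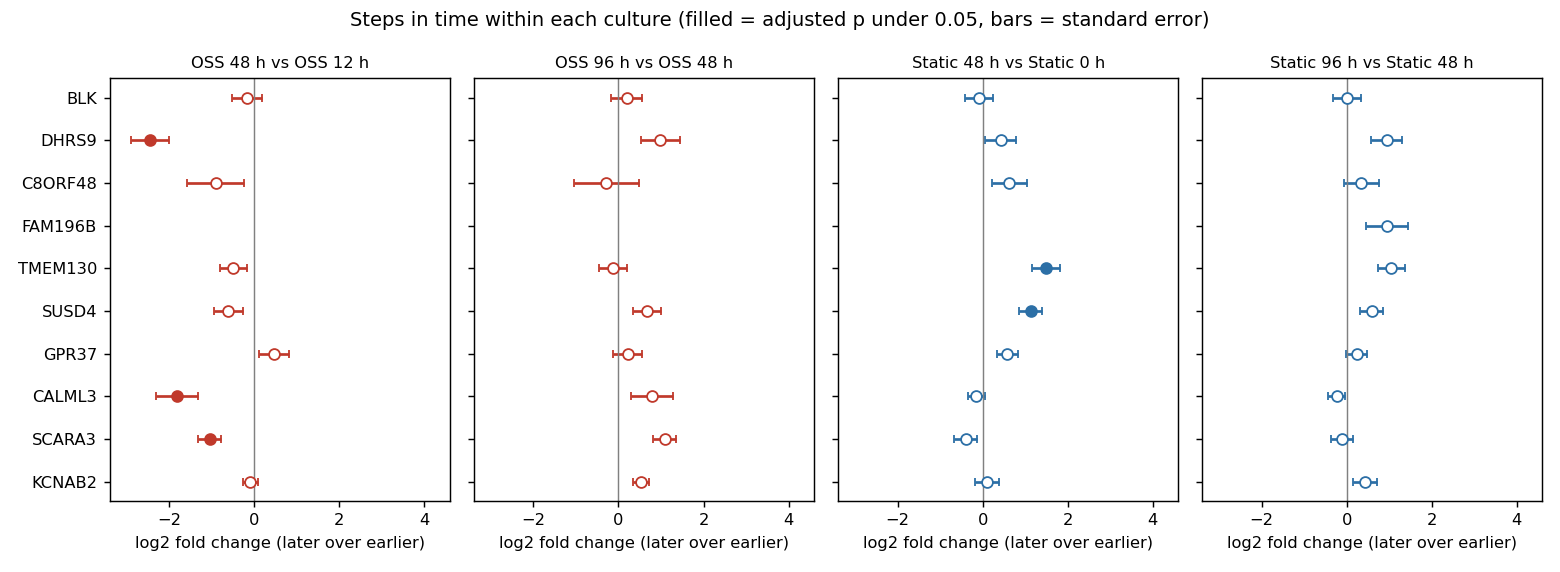
Log2 fold change of each gene between successive times within OSS (red) and within Static culture (blue), later over earlier; bars are standard errors and filled points have an edgeR adjusted p under 0.05. DHRS9, CALML3 and SCARA3 fall in the first OSS step, TMEM130 and SUSD4 rise in the first Static step, and no point is filled in either late step. FAM196B is shown only in the last panel, because it had 0 to 4 counts per library in OSS and passed the filter only through the later Static libraries.

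Whether the late step differed between the cultures was tested as the OSS change from 48 to 96 h minus the Static change over the same time. No gene of the 10 passed (adjusted p 0.26 to 0.99), and none of all 12840 did, so the background was 0%. In that comparison 1580 genes had an unadjusted p under 0.05 in edgeR, and DESeq2 and the blocked fit called 225 and 138 genes, of which 0 and 0 were among the 10. SCARA3 (1.18 ± 0.40) and TMEM130 (-1.19 ± 0.49) had the unadjusted p under 0.05 among the 10, the late change of SCARA3 being the more positive under OSS and that of TMEM130 under Static.

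Replicates moved together across the 10 genes. In OSS 96 h replicate 3 had the highest level for 9 of 10 genes, by a median of 1.68 times the mean of the other 2, while replicate 1 was lowest for 8 of 10 genes in OSS 12 h, 7 in OSS 48 h, 7 in OSS 96 h, 8 in Static 48 h and 7 in Static 96 h. The mean log2 level of 16 classic hypoxia genes (CA9, VEGFA, SLC2A1, LDHA and others, known to be induced at low oxygen) was highest in the same replicate in these groups: 4.85 in OSS 96 h replicate 3, against 4.62 and 4.68 in replicates 1 and 2, and 6.37 in Static 0 h replicate 2, against 6.17 and 5.75 in replicates 1 and 3. In Static 96 h it differed little between replicates (6.998, 7.004 and 7.0002), whereas 7 of the 10 genes were highest in replicate 3. Of those 16 genes 14, 14 and 15 were lower in OSS at 12 h against 0 h, 48 h and 96 h (edgeR adjusted p under 0.05), beside 6.65, 24.5 and 26.2% of all tested genes. None of the 16 was higher, beside 6.45, 23.5 and 25.5% of all tested genes. At 12 h against 0 h the count of lower hypoxia genes was 5 without OSS 12 h replicate 2. At Static 48 h 8 of the 16 were higher than at Static 0 h, beside 14.8% of all tested genes. With the replicate block 10 were higher, and the 14.8% is not a share of that fit. At Static 96 h 0 were called against Static 48 h, beside 0.0389% of all tested genes.

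Because OSS and Static libraries form separate clusters, the likeness of each gene to that hypoxia mean is given within each culture, as a description over 9 libraries that share their depth and their replicate pools. The 9 libraries also differ in time. In Static culture the mean was 5.75 to 6.37 at 0 h, 6.78 to 6.87 at 48 h and 6.998 to 7.004 at 96 h, so any rise with time in culture enters the Static r. SUSD4 followed the mean most closely in both, with Pearson's r of 0.85 over the 9 OSS libraries and 0.97 over the 9 Static libraries. FAM196B (0.94), GPR37 (0.91), TMEM130 (0.91), C8ORF48 (0.83), DHRS9 (0.81) and KCNAB2 (0.74) had high r in Static culture. Under OSS the r of BLK, DHRS9, C8ORF48, FAM196B and TMEM130 lay between 0.13 and 0.27, at levels near the counting limit for several of them. CALML3 and SCARA3 differed in sign between the cultures, with 0.49 and 0.70 under OSS and -0.21 and -0.30 in Static culture, and the difference was not tested.

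**Figure D4:**
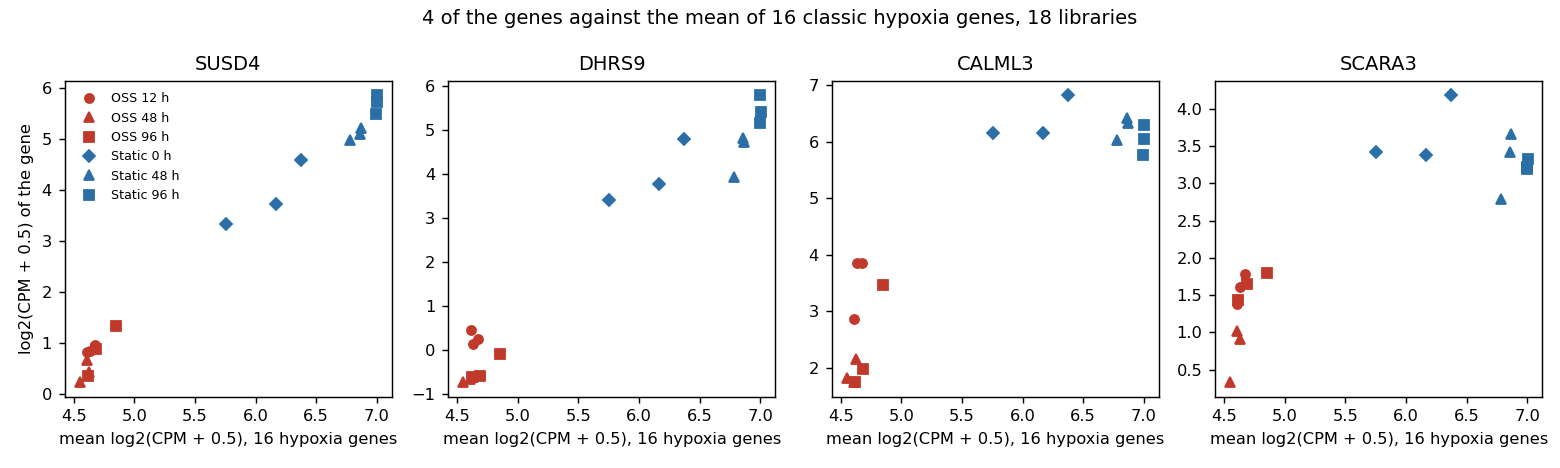
Log2(CPM + 0.5) of SUSD4, DHRS9, CALML3 and SCARA3 (vertical axes) against the mean of 16 classic hypoxia genes on the same scale (horizontal axes) in 18 libraries, OSS in red and Static in blue. SUSD4 follows the mean within both cultures, with r of 0.85 in OSS and 0.97 in Static, whereas CALML3 and SCARA3 do not increase with it among Static libraries. Libraries of each culture differ in time, which enters these r.

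Other genes of the table were ordered by their likeness to each of the 10 over all 18 libraries, where the gap between OSS and Static makes most of any r. The closest to DHRS9 was P4HA2, a collagen prolyl hydroxylase (r = 0.995 over 18 libraries), followed by ZNF395 and CA9. BLK was most like PLOD1 (a lysyl hydroxylase), KDM4B and CA9, and KCNAB2 was most like ST3GAL1, PLOD1 and BNIP3L. GPR37 had BNIP3L (a mitophagy receptor), ADAMTS13 and SYNM as nearest, SUSD4 had ENO2, SLC2A1 and ZNF395, C8ORF48 had ZNF395, PCSK1 and FAM162A, and CALML3 had MAP4K1, CA9 and CNTN1. FAM196B was most like DOCK2, a guanine exchange factor with 0.491 ± 0.210 CPM in OSS 96 h and 13.8 ± 3.58 CPM in Static 96 h, next to STEAP3 and BBS2, and TMEM130 was most like AHCYL1, DCTN1 and PSTPIP1. SCARA3 had AC013394.1, CEP290 and LOC100011334 as nearest. The r of these nearest genes ran from 0.962 to 0.995, and that between the 10 genes themselves had a median of 0.94 over 45 pairs, lowest for FAM196B with SCARA3 (0.65) and highest for DHRS9 with SUSD4 (0.99).

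Relatives of the 10 genes were higher in some cases and lower in others. Among 6 tested kinases of or near the Src family, SRC, FYN and SRMS were lower in OSS at 96 h and FRK was higher (0.47 ± 0.08, edgeR adjusted p = 0.0019). Lower calls made up 26.2% of all tested genes at 96 h and higher calls 25.5%. SRMS had the lowest value, with -2.51 ± 0.26 and 0.580 ± 0.076 CPM in OSS 96 h against 3.33 ± 0.90 CPM in Static 96 h, and SRC was at -0.82 ± 0.06. At 48 h 3 of the 6 were lower and 0 higher, beside 24.5 and 23.5% of all tested genes, and at 12 h against 0 h 2 were lower and 0 higher, beside 6.65 and 6.45% (0 lower without any one of Static 0 h replicate 2, OSS 12 h replicate 1 and OSS 12 h replicate 2). LYN, the Src kinase that works beside BLK in B cells, averaged 0.0983 CPM in OSS 96 h and 0.185 CPM in Static 96 h and was too low to be tested. Of 3 tested genes of B cell receptor signalling, 1 was higher at 96 h, beside 25.5% of all tested genes. It was the adaptor BLNK (0.68 ± 0.06 for the more abundant of its 2 entries and 0.62 ± 0.19 for the other). At 48 h 1 was lower, PLCG2 (-0.81 ± 0.19), beside 24.5% of all tested genes. Nothing is read from these counts.

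Around DHRS9, 9 genes of retinoid and steroid oxidation and uptake were tested, and they moved in both directions. At 96 h 3 were higher in OSS and 4 lower, beside 25.5 and 26.2% of all tested genes. ALDH1A1, which makes retinoic acid, was higher by 1.96 ± 0.15 (edgeR adjusted p = 1.05e-04), with 425 ± 66.6 CPM in OSS 96 h against 109 ± 17.1 CPM in Static 96 h, and DHRS7 was lower (-1.43 ± 0.06), as were SDR16C5 (-1.23 ± 0.18) and LRAT (-0.84 ± 0.30, adjusted p = 0.048), a call that was lost in 5 of 6 fits without 1 library. The second entry of ALDH1A1 gave 1.83 ± 0.12, and reads of such copies may be split between entries. At 48 h 5 were higher and 2 lower (23.5 and 24.5% of all tested genes), and at 12 h against 0 h 1 was higher and 1 lower (6.45 and 6.65%). Under the replicate block 3 were higher and 2 lower in that first comparison. The block also called more of all tested genes there, so the shares above do not apply to it and nothing is read from its count. Without OSS 12 h replicate 2, 0 were called.

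Among 6 tested sushi domain and complement genes, the complement regulator CD46 was lower in OSS at 96 h (-0.55 ± 0.11, edgeR adjusted p = 0.0045). At 48 h 3 of the 6 were lower (24.5% of all tested genes), and 2 without OSS 48 h replicate 2. The value of SUSD4 at 96 h was -5.17 ± 0.29, without a test. In the list around GPR37, EDN1 (endothelin 1) was lower at 96 h by the same test, at -2.0 ± 0.17 on the log2 scale with 12.4 ± 2.74 CPM in OSS 96 h against 49.1 ± 5.37 CPM in Static 96 h, and prosaposin (PSAP) was not called (0.03 ± 0.07). GPR37L1, the nearest relative of GPR37, did not pass the filter, with 0.306 ± 0.063 CPM in OSS 96 h and 3.81 ± 0.57 CPM in Static 96 h. Of 12 tested calmodulins and partners, CALM2 (-0.69 ± 0.06 for the most abundant of its 3 entries, the others being at -0.0041 and -0.13 and not called) and CAMK2G (-0.38 ± 0.08) were lower and CALML4 (0.88 ± 0.11) was higher at 96 h. Of all tested genes 26.2% were lower and 25.5% higher at that time, and nothing is read from these counts. The CALML3 partner MYO10 was not called in the 3 comparisons of OSS with Static (0.29, 0.04 and 0.16 at 12 h against 0 h, 48 h and 96 h). With the replicate number as a block MYO10 was called at 12 h (adjusted p = 0.0034) and at 96 h (adjusted p = 0.03). The blocked fit called 2 higher and 4 lower in that list at 96 h, but the shares above are not of that fit, so nothing is read from this count.

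The remaining relatives were few. SCARA5, a ferritin receptor and the one tested class A relative of SCARA3, was higher in OSS at 48 h (0.86 ± 0.15) and at 96 h (0.78 ± 0.14, edgeR adjusted p = 0.0029), with 29.0 ± 2.66 CPM in OSS 96 h against 16.8 ± 2.91 CPM in Static 96 h. KCNAB3, the only other tested β subunit, was higher at 96 h (1.13 ± 0.23, adjusted p = 0.0055) at a level of 1.26 ± 0.17 CPM in OSS 96 h against 0.574 ± 0.089 CPM in Static 96 h, while none of the Kv1 α subunits with an entry passed the filter. GPNMB, a relative of TMEM130, was lower in OSS at 48 h (-2.35 ± 0.47) and at 96 h (-2.0 ± 0.28) and higher in Static 48 h than in Static 0 h (1.47 ± 0.34, adjusted p = 0.012). TMEM130 was lower in OSS at 48 and 96 h too, in contrasts that chose it, and higher in Static 48 h. At OSS 12 h against Static 0 h the 2 genes differed. GPNMB was not called there (0.20 ± 0.53, edgeR adjusted p = 0.82), while TMEM130 was at -1.84 ± 0.35, without a test. GPNMB was scarce, with 1.18 ± 0.38 CPM in OSS 96 h and 4.59 ± 1.04 CPM in Static 96 h.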

How the data were processed

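RNA was measured in 18 OK cell libraries (3 replicates in each of 6 groups), grouped by the condition, time and replicate in their titles. The authors removed ribosomal RNA, made stranded total RNA libraries and trimmed reads with cutadapt. They mapped the reads to the Monodelphis domestica genome (MonDom5) with TopHat2, with a mismatch value of 6. They then removed mitochondrial and ribosomal reads and used featureCounts to count what was left in each gene. How well the reads of each gene mapped was not tested, which limits comparisons of level between genes. The deposited values are these raw counts for 23899 genes. Tool versions, the strand setting of the counting and the annotation release are not given in the sources used here, so reads of overlapping antisense genes cannot be told apart. The tested genes held 99.86 to 99.92% of all counts.

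The 10 genes and the lists of relatives and markers were chosen with earlier results of these data known. Listed genes that passed the test were named, at most 4 per list and comparison by size of change, as were the 3 genes with the highest Pearson's r of log2(CPM + 0.5) with each of the 10. CPM were scaled by TMM. Tests used edgeR 4.0.16 in R 4.3.3 with limma 3.58.1 (TMM, trended qCML dispersion, quasi-likelihood F test in its legacy form), genes with CPM above 1 in at least 6 of 18 libraries, Benjamini-Hochberg adjustment over 12840 genes and a threshold of 0.05. Standard errors were derived from F, as the absolute log2 fold change over its square root. Steps in time were fitted on the 9 libraries of each culture and the difference of late steps on all 18. Of the OSS against Static comparisons, those of 12 h and 96 h used their own 6 libraries, and that of 48 h used all 18. Scripts were tested on simulated data. Exact intervals (95%) for a ratio of summed counts are conditional binomial.

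Replicate numbers come from the titles and were checked for pairing. The deviations from group means of same-numbered libraries correlated in all 45 pairs (r 0.28 to 0.79, median 0.55), and therefore a fit with the number as a block is given where it changes a call. Replicates are separate pools of 3 experiments, and no pair agreed within sampling noise (chi-square per gene at least 25.1). Alternatives were DESeq2 1.42.0, no TMM factors, no filter, the replicate block, other libraries in the fit, leaving out each library, a sheet with 1 entry per gene name (20503 genes) and a pseudocount of 1 for correlations. Genomic sequence is not used here. Some listed genes are not reported here.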

Additional observations from a re-analysis of the deposited data

How the results depend on the processing

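The counts of called genes depended on the fit. For OSS 12 h against Static 0 h, 1682 genes were called, against 2788 with DESeq2, 5294 with a replicate block and 3107 with all 18 libraries, and leaving out 1 library gave 71 (without OSS 12 h replicate 2) to 1695. For OSS 48 h against OSS 12 h the count was 3480, with 5493 under the block and 2173 to 3107 without 1 library. For OSS 96 h against OSS 48 h it was 147, with 1105 in DESeq2, 2466 under the block, 310 with all 18 libraries, 296 with only the groups compared and 1 to 15 without 1 library. For Static 48 h against Static 0 h it was 3869, and 2562 with only the groups compared. For Static 96 h against Static 48 h it was 5, with 286 in DESeq2, 8 with no filter, 103 under the block, 59 with all 18 libraries, 0 with only the groups compared and 0 to 13 without 1 library. For the difference of late steps it was 0, with 225 in DESeq2, 138 under the block and 0 to 24 without 1 library. The cause was not tested.

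Among the 10 genes, leaving out 1 library gave 1 to 3 calls for OSS 48 h against OSS 12 h and 2 to 6 for Static 48 h against Static 0 h, where the block gave 5, FAM196B being counted each time although it passed the filter only through the later Static libraries. For OSS 96 h against OSS 48 h DESeq2 called 1 and the block 2. The block changed no other call of the 10. Every OSS against Static value of the 10 genes kept its direction in 120 alternatives a comparison and moved by more than the replicate SD in 5, 5 and 9 of them. Uncalled changes that turned sign without 1 library ranged as follows. For OSS 48 h against OSS 12 h, KCNAB2 ranged from -0.22 to 0.11. For OSS 96 h against OSS 48 h, BLK ranged from -0.040 to 0.50, C8ORF48 from -1.14 to 0.0075, CALML3 from -0.068 to 1.10, GPR37 from -0.026 to 0.45 and TMEM130 from -0.32 to 0.11. For Static 48 h against Static 0 h, BLK ranged from -0.41 to 0.40, CALML3 from -0.27 to 0.10 and KCNAB2 from -0.16 to 0.54. For Static 96 h against Static 48 h, BLK ranged from -0.095 to 0.085, with -0.050 without TMM factors, and SCARA3 from -0.33 to 0.11. Depth limited FAM196B and C8ORF48 under OSS, at 0 to 24 counts per library. No fold within OSS was given for FAM196B, and the difference of late steps was followed under the alternatives for SCARA3 and TMEM130.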
